A study of Mus musculus with 2 samples.

Results

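Double-positive thymocytes are immature T cells of the thymic cortex that carry CD4 and CD8 together, and 6 genes known as markers of that stage, Ptcra, Arpp21, Aqp11, Endou, Cd1d1 and Cd24a, are described here. They were chosen by gene symbol out of 19505 named genes, because their levels on these arrays were already known, so their values are a description and carry no test. RNA was profiled on 2 Affymetrix arrays, 1 labelled circKcnt2 knockout and 1 labelled Wild-type (WT below), each from group 3 innate lymphoid cells (ILC3s) of mice given dextran sodium sulfate (DSS), a chemical that injures the gut epithelium. In the knockout mice, made with CRISPR/Cas9 on a C57BL/6 background, the intronic sequence that the circular RNA circKcnt2 needs to form was deleted. The WT mice were of the same background. The paper names WT littermates for its ILC progenitor counts and does not say so for the arrays. The paper gives alternative ILC3 gates, each lineage-negative with low CD45, and with either high CD90 or RORγt and CD127. Its methods do not say which was used for these arrays, and how many mice were used is not stated. For DSS colitis, mice of about 8 weeks drank 3% DSS for 7 days and then water for 7 days, and the day on which the cells for the arrays were taken is not given.

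T cell precursors pass from a double-negative stage, without CD4 and CD8, through the double-positive stage to single-positive cells that leave the thymus. The pre-TCR, a T cell receptor beta chain paired with the invariant chain encoded by Ptcra, signals that a beta chain has been made, and double-positive cells then rearrange the alpha chain with the RAG recombinase. ILC3s are lymphocytes without rearranged antigen receptors, known for IL-22 and IL-17 production in the gut.

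For 3 of the 6 genes RefSeq (GRCm38.p6) start sites were at hand, and the E box, bound by the E proteins that act on the Ptcra gene in thymocytes, was searched in them. The upstream sequences of Ptcra and Aqp11 are shown because each has 1 start in the table and they differ in the motifs they hold. Each is the 250 bases before the start on the minus strand, written 5′ to 3′, at chr17:46763713-46763962 for Ptcra and chr7:97738248-97738497 for Aqp11, and capitals mark motif matches.
Ptcra: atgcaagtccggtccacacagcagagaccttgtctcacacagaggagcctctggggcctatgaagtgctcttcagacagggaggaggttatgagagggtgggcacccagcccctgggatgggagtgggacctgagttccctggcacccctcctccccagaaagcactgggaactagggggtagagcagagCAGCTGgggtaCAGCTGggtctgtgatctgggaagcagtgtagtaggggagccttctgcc
Aqp11: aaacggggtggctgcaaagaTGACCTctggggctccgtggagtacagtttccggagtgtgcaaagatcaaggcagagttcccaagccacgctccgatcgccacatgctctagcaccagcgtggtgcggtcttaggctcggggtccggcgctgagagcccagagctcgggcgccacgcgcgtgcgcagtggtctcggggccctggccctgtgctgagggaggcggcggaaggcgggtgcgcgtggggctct
Both strands were searched over 300 bases, the 250 above plus 50 after the start, for CAGCTG and CACCTG (E boxes), AGGTCA (nuclear receptor half-site) and TGTGGT (RUNX site), and none of these motifs overlaps another in these sequences. The Ptcra window held 3 copies of CAGCTG, beginning 60 and 49 bases before the start and 21 bases after it. At least 1 CAGCTG was present in 16.3% of 32851 windows of that length in the table, and 3 or more in 0.207%. The cut of 3 is the count of Ptcra itself and was applied to no other motif, so that share is a description. The Aqp11 window held no E box of either kind and 1 AGGTCA on the opposite strand, 230 bases before the start, a motif present in 16.3% of windows. Arpp21 has 9 starts in the table, whose windows partly overlap and cover 6 separate stretches. These held 3 different CAGCTG sites, 6 CACCTG (a motif present in 20.2% of all windows), 1 AGGTCA and 2 TGTGGT (16.8% of all windows), and more starts give more chances of a match. Which start was used in these cells was not measured, and a match does not show binding.

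All 6 genes lay above background on both arrays. Levels are log2 values, and background was set at 2.73, the 95th percentile of 1410 olfactory and vomeronasal receptor genes, which lymphocytes are not known to use. On both arrays 58.4% of named genes reached this level, and control probes of high GC content ran up to 5.91. Of the 6 genes, 5 exceeded that stricter level on both arrays, and Cd1d1 lay below it on both, whereas 14.9% of all named genes exceeded it on both. Each gene was measured by 1 probe set, and levels of different genes are not compared because they also depend on the probes.

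Ptcra, which encodes the pre-TCR alpha chain (probe set TC1700002190.mm.2), was at 6.53 on the circKcnt2 knockout array and 6.17 on the WT array. These levels were 3.80 and 3.44 above background. Its difference, circKcnt2 knockout minus WT, was 0.36, or 1.28-fold higher. With 1 array per genotype there is no spread between samples to set this difference against, and no p-value is given for it or for any difference below.

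Arpp21 (probe set TC0900003138.mm.2) encodes an RNA-binding phosphoprotein with an R3H domain, expressed in immature thymocytes and in neurons. It was at 7.51 on the circKcnt2 knockout array and 7.14 on the WT array, 4.78 and 4.41 above background. The difference of 0.38, or 1.30-fold, was the highest among the 6 genes. Aqp11 (probe set TC0700003769.mm.2), a channel of the aquaporin family found in intracellular membranes, was at 9.46 in the knockout and 9.11 in WT, which was 6.73 and 6.38 above background. Its difference was 0.35, or 1.27-fold. Endou (probe set TC1500002155.mm.2), a poly(U)-specific endoribonuclease, was at 7.13 in the knockout and 6.88 in WT, a difference of 0.26 or 1.19-fold.

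The other two genes encode surface proteins. Cd24a (probe set TC1000000402.mm.2), the heat-stable antigen, is attached to the membrane by a GPI anchor and is lost as thymocytes mature. It was at 6.93 on the circKcnt2 knockout array and 6.65 on the WT array, a difference of 0.28 or 1.21-fold. Cd1d1 (probe set TC0300002277.mm.2) encodes the lipid-presenting molecule by which double-positive thymocytes select natural killer T cells. It was at 5.28 in the knockout and 5.57 in WT, and its difference of -0.29, or 1.22-fold lower, had the opposite sign to the other five. Cd24a is also known from B cells, neutrophils, erythroid cells and epithelium, and Cd1d1 from B cells and myeloid cells.

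**Figure D1:**
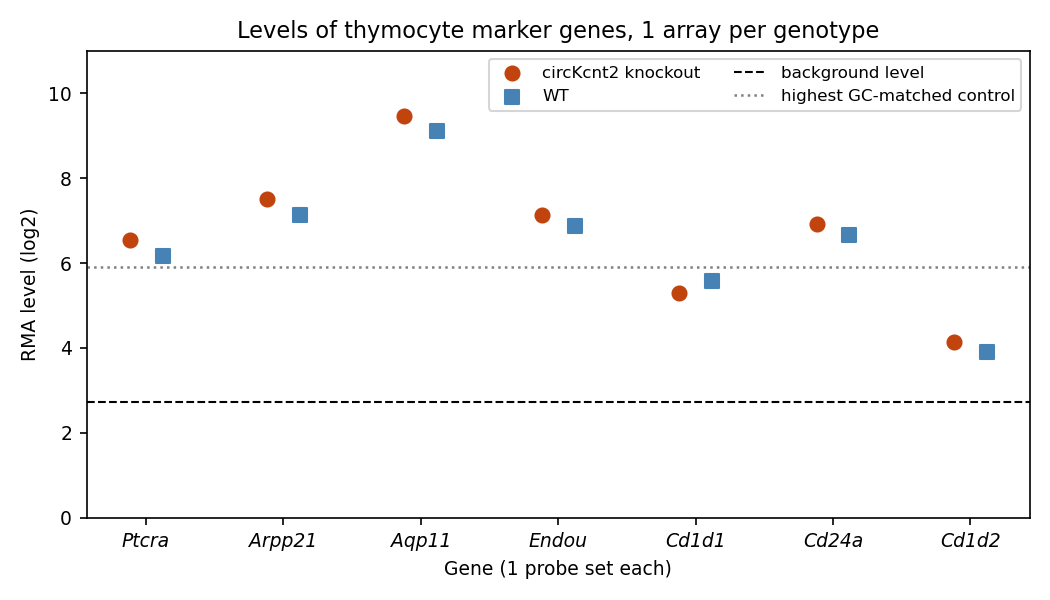
RMA level (log2) of each thymocyte marker gene and of Cd1d2 on the circKcnt2 knockout array (circles) and the WT array (squares), 1 array each, with the background level of 2.73 and the highest GC-matched control of 5.91 as lines. All genes lie above background, and Cd1d1 and Cd1d2 lie below the highest control.

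Cd1d2 is the neighbour and close relative of Cd1d1, annotated in RefSeq as a transcribed pseudogene. Its probe set (TC0300000689.mm.2) was at 4.14 on the circKcnt2 knockout array and 3.90 on the WT array, a difference of 0.24 with the opposite sign to that of Cd1d1. Whether the probes tell the 2 genes apart was not examined, so the level of Cd1d1 is uncertain to that extent.

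The next question was whether the markers differed between the genotypes. None of the 6 genes was 1.5-fold higher or 1.5-fold lower on the circKcnt2 knockout array, where 7.66% of the 12502 genes above background on at least 1 array were 1.5-fold higher and 5.22% were 1.5-fold lower. At 2-fold, which 1.11% of all genes passed upward and 0.512% downward, none of the 6 was called either. At a threshold of 25% higher, Ptcra, Arpp21 and Aqp11 were counted, as were 22.9% of all genes, and none was at least 20% lower, as were 16.1% of all genes. The median difference of the 6 genes was 0.31, against 0.06 over all genes above background. The 5 positive differences lay between 0.26 and 0.38, a range that holds 9.92% of all genes. With Cd1d1 the range runs from -0.29 to 0.38 and holds 63.0%. Both ranges were set by the values of the markers themselves.

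Genes of like level were taken from 20 bins of mean level, and every one of the 6 differences lay within the middle 95%. The median difference in the bins of the 6 genes ran from 0.13 to 0.16, above the 0.06 over all genes. Genes of like level to Ptcra had a median difference of 0.16 and a middle 95% from -0.41 to 0.61, and 80.5% of them lay below Ptcra. The share lying below was 85.6% for Arpp21, 84.0% for Aqp11, 72.0% for Cd24a and 69.0% for Endou. Cd1d1 stood at the other end, with 8.0% of like genes below it. With 2 arrays the pattern of a gene is a single difference, and between 851 and 1209 other genes lay within 0.05 of the difference of each of the 6 genes.

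**Figure D2:**
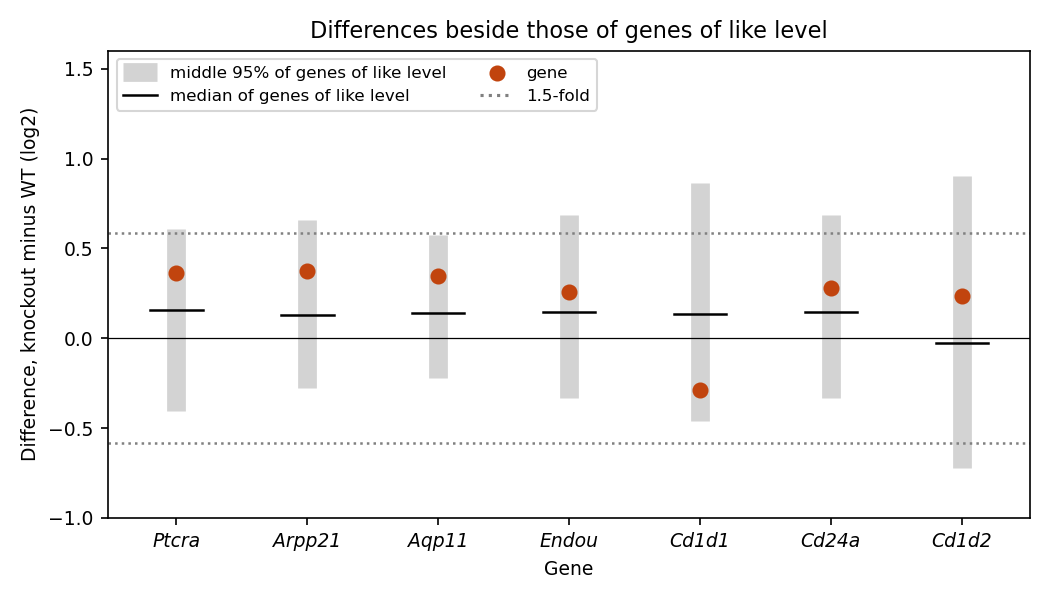
Difference in level (circKcnt2 knockout minus WT, log2) of each thymocyte marker gene and Cd1d2 (points), over the middle 95% (grey bars) and median (black lines) of genes of like level, with 1.5-fold dotted. All points lie inside the bars and inside the 1.5-fold lines.

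Other genes of the double-positive stage were measured to place the 6 markers. Of 23 listed, 20 were named on the array, and all 20 were above background and above the highest GC-matched control on both arrays. Rag2, a subunit of the RAG recombinase, was at 6.80 on the circKcnt2 knockout array and 6.17 on the WT array, a difference of 0.63. Dntt, which adds bases at recombination junctions, was at 8.24 in the knockout and 8.25 in WT. The coreceptor genes Cd4 (9.28 in the knockout and 9.10 in WT), Cd8a (9.71 in the knockout and 9.65 in WT) and Cd8b1 (10.00 in the knockout and 9.96 in WT) differed by at most 0.18. The 3 listed genes that are not among these 20 were not analysed here.

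Of these 20 genes, 2 were 1.5-fold higher in the knockout, Rag2 and Slamf6, and none was lower. Among all genes above background 7.66% were higher and 5.22% lower. The median difference of the 20 was 0.09. That median was -0.06 after the loess correction and -0.02 after quantile normalization. Slamf6, a receptor by which thymocytes signal to each other in natural killer T cell selection, was at 7.89 in the knockout and 7.24 in WT. Neither gene passed 1.5-fold after the loess correction or quantile normalization described in the closing section. Bcl2l1, which encodes the survival factor of double-positive cells BCL-XL, differed by 0.27, and Sh2d1a, the adaptor of SLAM receptors, by 0.25.

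Stages before and after gave other shares. Of 16 double-negative and early progenitor genes, 10 (62.5%) were above background on both arrays and 1 (6.25%), Spi1, exceeded the highest control on both. For all named genes these shares were 58.4% and 14.9%. Spi1, a factor silenced at T lineage commitment, was at 5.97 in the knockout and 6.52 in WT, and Lmo2, silenced at the same step, at 3.10 in the knockout and 3.73 in WT. Il2ra, the CD25 gene of late double-negative cells, was at 3.07 in the knockout and below background at 2.53 in WT, at least 1.26-fold higher when the background level is taken for WT, and Dtx1, a Notch target, differed by 0.41. Lmo2 alone passed 1.5-fold, and this changed with the setting. After the loess correction Spi1 (-0.70) and Il2ra (0.76) passed and Lmo2 (-0.53) did not, quantile normalization gave 2 higher and 2 lower, subtraction of the median of all genes gave 2 lower, and the stricter floors and adding 32 gave none. The median of 12 genes above background was 0.03 (-0.03 after subtraction of the median of all genes).

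All 11 measured genes of mature thymocytes and emigrants were above background on both arrays and 6 exceeded the highest control, among them Il7r, Ccr7 and Cd69. The egress genes S1pr1 (4.60 in the knockout and 4.72 in WT) and Klf2 (3.93 in the knockout and 4.12 in WT) were above background and below that control. None passed 1.5-fold, and the median difference was -0.09. The largest differences were those of Runx3 (0.35), the CD8 lineage factor, Zbtb7b (-0.25), the CD4 lineage factor, and Ccr7 (-0.24), a receptor that guides cells to the thymic medulla.

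**Figure D3:**
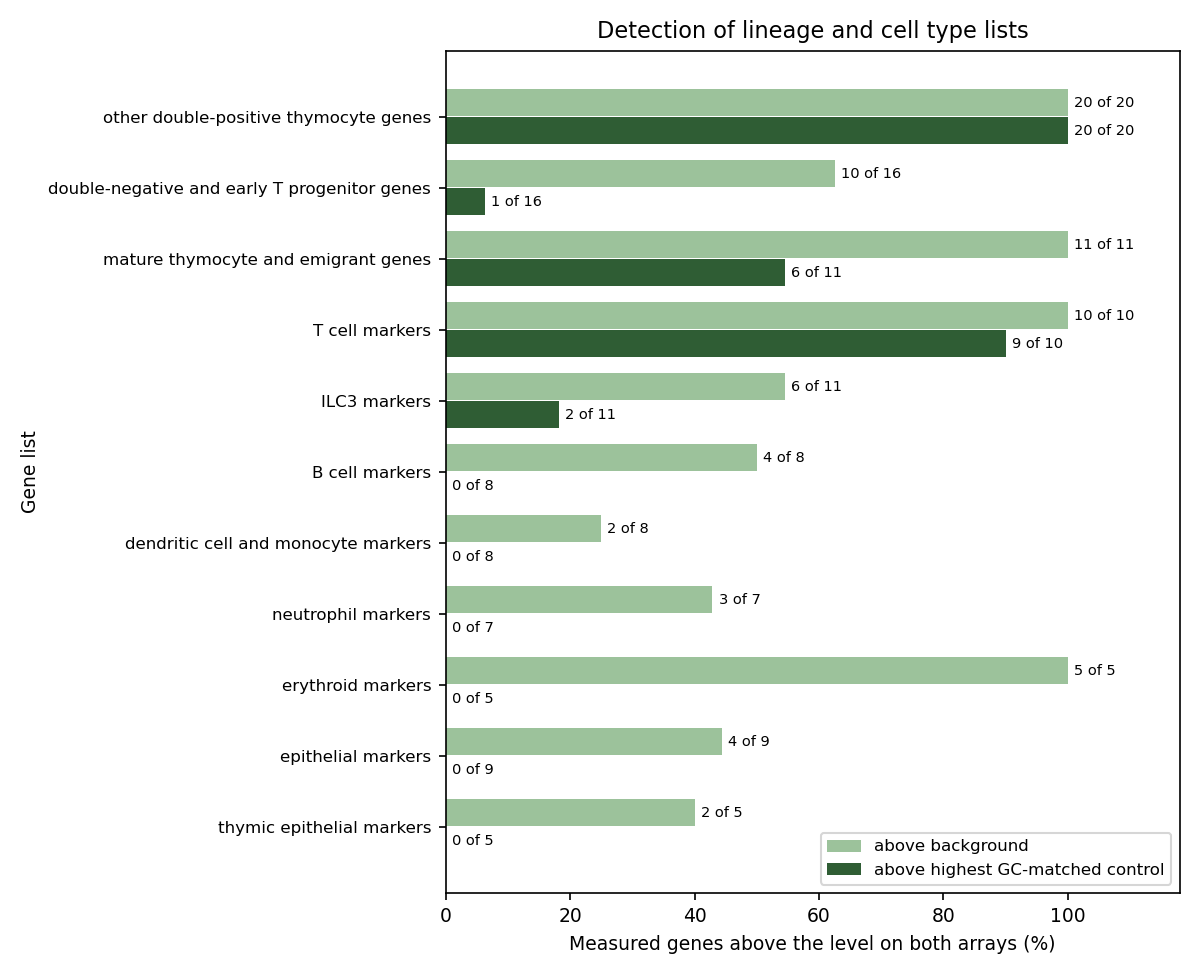
Share of measured genes (%) in each lineage or cell type list above background (light bars) and above the highest GC-matched control (dark bars) on both arrays, with counts at the bars. All 20 other double-positive genes exceed both levels, against 2 of 11 ILC3 markers and none of the B cell, myeloid, erythroid or epithelial markers for the higher level.

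The labelled cell type was checked against defining markers. Of 10 T cell markers, 9 exceeded the highest control on both arrays, although the ILC3 gates in the paper are lineage-negative. Cd3e was at 10.16 in the knockout and 9.98 in WT. Thy1, among these 9, encodes CD90, for which an ILC3 gate of the paper selects. Cd4, Cd8a, Cd8b1 and Cd5 are also among the double-positive genes above, and the CD3 genes among those of TCR signalling below. The count is therefore not a separate check. Of 11 ILC3 markers, 6 were above background on both arrays and Il7r and Id2 alone exceeded the highest control, and both are also known from T cells. Kit (3.74 in the knockout and 3.67 in WT), Ahr (3.92 in the knockout and 4.40 in WT), Cxcr6 (3.69 in the knockout and 3.62 in WT) and Il22 (2.93 in the knockout and 3.35 in WT) were above background and below that control. Il23r, Il1r1, Ccr6 and Ncr1 were below background on both arrays. The ILC3 shares, 54.5% above background and 18.2% above the highest control, lay near those of all named genes, 58.4% and 14.9%. The arrays do not settle which cells were sorted.

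Cell types that share Cd24a or Cd1d1 were looked at in the same way. Of 8 B cell, 8 dendritic cell and monocyte, 7 neutrophil, 5 erythroid, 9 epithelial and 5 thymic epithelial markers, none exceeded the highest GC-matched control on both arrays. Above the lower background, 4, 2, 3, 5, 4 and 2 of them lay on both arrays. In B cells, Cd79b was at 4.87 in the knockout and 3.91 in WT, and Pax5 was below background at 2.66 in the knockout and at 3.24 in WT. Fewer cells of a type and less RNA per cell cannot be told apart in such samples.

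The partners of Ptcra were compared next. Among 14 measured genes of pre-TCR and TCR signalling, all were above background and none differed by 1.5-fold, with a median of 0.02, which was -0.13 after the loess correction. The largest differences were those of Cd3d (0.42), a CD3 chain shared by the pre-TCR and the TCR, Cxcr4 (0.36), a chemokine receptor that aids beta selection, Zap70 (0.35), a kinase recruited to both receptors, and Ptprc (0.20), the phosphatase CD45. The 9 genes known to act on Ptcra had a median of 0.15 (0.00 after the loess correction), with 1 past 1.5-fold. That gene, Id3, an inhibitor of E proteins and a target of pre-TCR signals, was at 5.81 in the knockout and 5.12 in WT, and fell short of 1.5-fold after the loess correction (0.56), quantile normalization (0.58) and adding 32 (0.40). Of the E proteins, Tcf12 was at 8.87 in the knockout and 8.78 in WT and Tcf3 at 7.15 in the knockout and 7.12 in WT, and Notch1 differed by 0.27, Myb by 0.21 and Notch3 by 0.19.

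Around Cd1d1, 14 of 15 measured genes of CD1 lipid presentation were above background on both arrays, none passed 1.5-fold and the median was 0.08 (-0.07 after the loess correction). B2m, the light chain of CD1d, was at 9.59 in the knockout and 9.41 in WT, and Psap, the precursor of lipid-loading saposins, at 8.16 in the knockout and 8.34 in WT. The largest differences were those of Gla (-0.36), a lysosomal galactosidase, Canx (0.34), a chaperone of CD1d, and Ctss (-0.25), a lysosomal protease.

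Relatives of the other markers were set beside them. None of 11 further aquaporin genes exceeded the highest control, 8 were above background on both arrays, and the median difference was -0.10 (0.01 after the loess correction), with Aqp7 at the background level in the knockout (2.73) and below it in WT (1.98). Of 8 genes of the R3H domain and ARPP phosphoprotein group to which Arpp21 belongs, 3 exceeded that control, R3hdm1, R3hdm2 and R3hdm4, and none passed 1.5-fold. The median of that group was 0.15 (0.01 after the loess correction and 0.02 after quantile normalization). Its largest differences were those of Ensa (0.55) and R3hcc1 (0.43). Among 8 GPI-anchored surface genes above background, the class to which Cd24a belongs, Cd48 (5.75 in the knockout and 5.14 in WT) was 1.52-fold higher and Ly6c1 (6.44 in the knockout and 7.26 in WT) 1.76-fold lower. Cd48 fell short of 1.5-fold after the loess correction (0.47), quantile normalization (0.48), subtraction of the median (0.55) and adding 32 (0.35), whereas Ly6c1 passed in each of these.

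**Figure D4:**
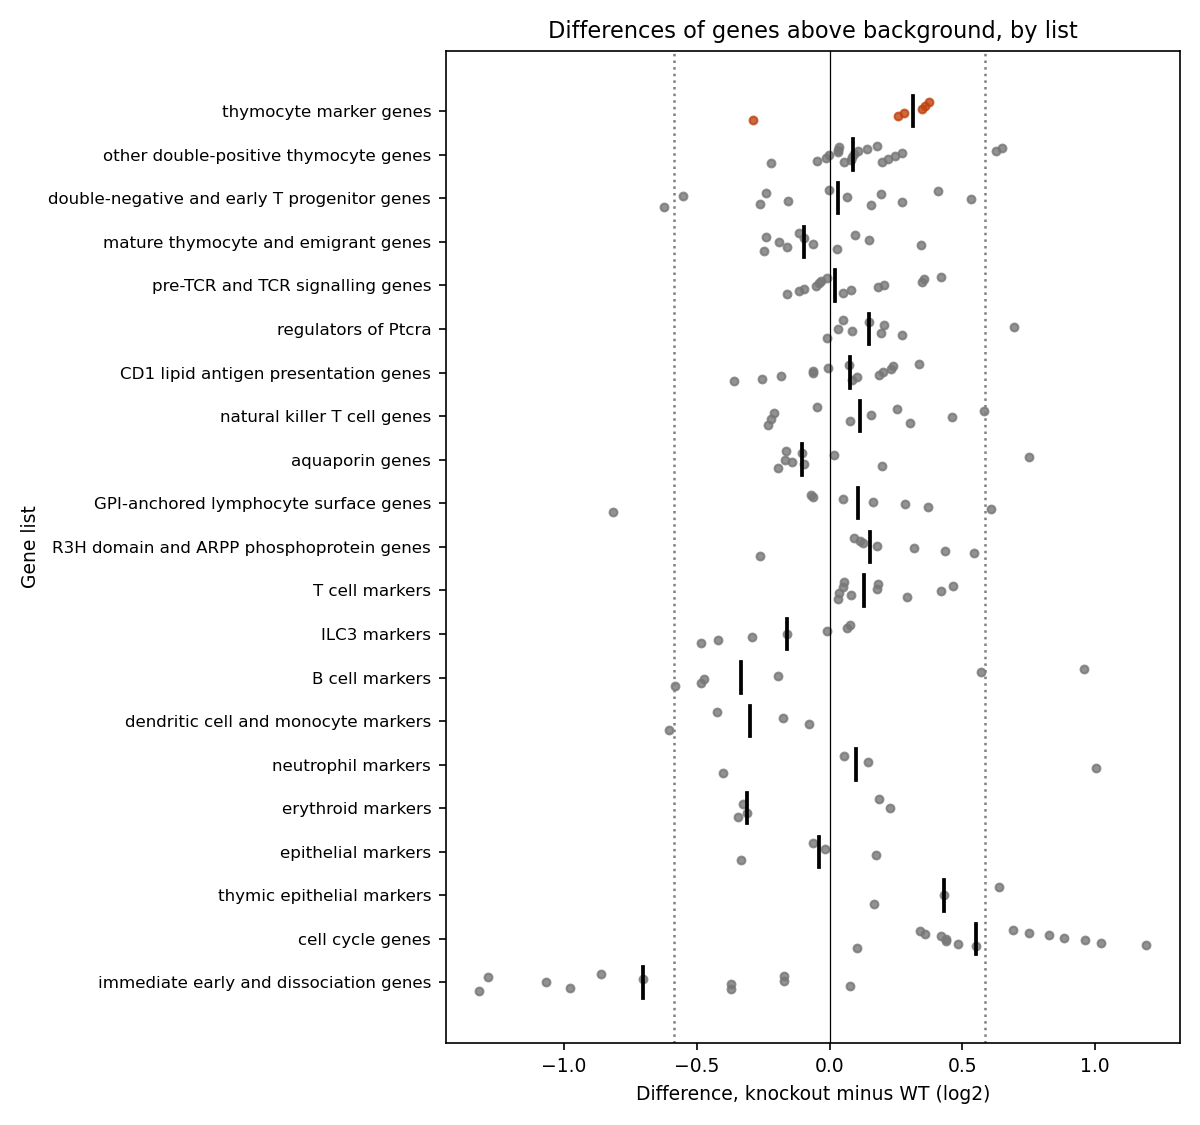
Difference (circKcnt2 knockout minus WT, log2) of each gene above background on at least 1 array, by list, with the list median as a black bar and 1.5-fold dotted. The thymocyte markers have a median of 0.31, the other double-positive genes 0.09, cell cycle genes 0.55 and immediate early genes -0.70.

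Other lists moved by more between the same arrays. Of 15 cell cycle genes, 7 were 1.5-fold higher in the knockout and none lower, with a median of 0.55, and Mki67, a proliferation antigen, was at 8.76 in the knockout and 7.87 in WT. Of 11 immediate early and dissociation genes, 6 were 1.5-fold lower and none higher, with a median of -0.70, and Fos was at 4.97 in the knockout and 6.29 in WT. After adding 32 before the logarithm, which shrinks differences of low levels, 3 cell cycle genes passed with a median of 0.42, and 4 immediate early genes with a median of -0.15. After the loess correction 6 cell cycle genes (median 0.40) and 5 immediate early genes (median -0.57) passed. The 10 T cell markers had a median difference of 0.13 and each differed by less than 1.5-fold, and the median was -0.01 after the loess correction. The Y-linked genes Uty, Kdm5d and Eif2s3y were below background in the knockout and at 5.26, 4.63 and 5.14 in WT. The part of any of these in the differences of the 6 markers was not tested. With 1 array each the genotype, the animal and its sex, the sort and the array cannot be told apart.

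The differences were recomputed under 9 other settings. Of these, 5 (other floors and the choice of probe set) could not alter a marker's value, since all 6 genes are above background with 1 probe set, and adding 32 can shrink a difference but not turn it. In the other 3 settings, the loess correction, quantile normalization and subtraction of the median, all 18 values kept their sign. Subtraction of the median lowers every difference by 0.06, less than the size of any of the 6, so it could not turn a sign. The loess correction and quantile normalization lowered all 6 differences, so the negative sign of Cd1d1 could not turn. The kept signs are therefore a weak check. The lowest positive difference was 0.11, for Endou after the loess correction, and Cd1d1 ran from -0.42 to -0.16. Ptcra ran from 0.21 to 0.36 and Arpp21 from 0.23 to 0.38.

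**Figure D5:**
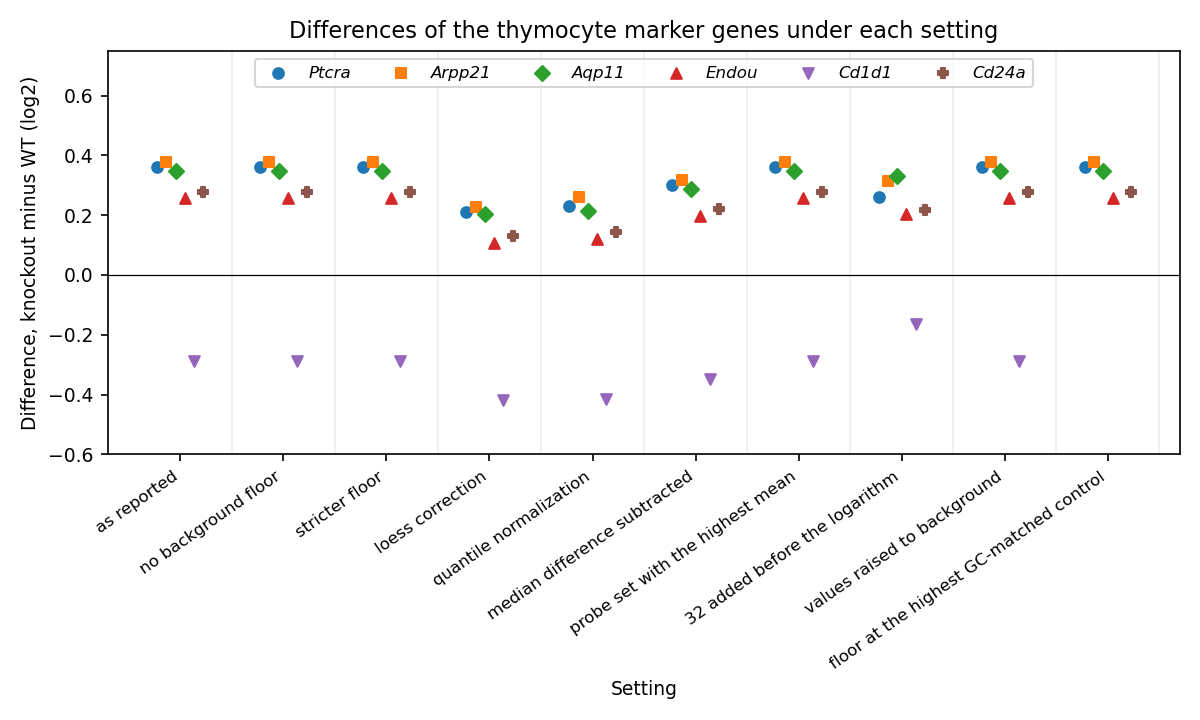
Difference (circKcnt2 knockout minus WT, log2) of each thymocyte marker gene as reported and under 9 other settings, of which 5 leave each value as it was by construction and adding 32 cannot turn a sign. In the other 3, Ptcra, Arpp21, Aqp11, Endou and Cd24a are above 0 and Cd1d1 below 0, and subtraction of the median shifts by too little to turn a sign. Cd1d1 has no point at the floor set by the highest GC-matched control.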

How the data were processed

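RNA of 1 circKcnt2 knockout and 1 WT sample was extracted with Trizol and its biotin-labelled cDNA put on an Affymetrix mouse array. The authors made the deposited log2 level of each probe set with RMA, and the submitters' processing notes name Affymetrix Power Tools and RMA without a version. The labels name a Mouse Gene 2.0 protocol, and the probe set identifiers follow another design. Of 29129 probe sets, 19572 had 1 gene symbol, 0 several and 9557 none in the platform annotation. Symbols of all 6 markers matched RefSeq GRCm38.p6, and probe sets were averaged for the 55 of 19505 genes that had more than 1. The sorted columns differed by at most 0.28. RMA can hide a shift of all genes. The number of arrays limits the precision.

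Markers, lists and settings were chosen with earlier results of these data known. Genes named were the 6 markers, Cd1d2, Rag2, Dntt, Cd4, Cd8a and Cd8b1 by choice, and up to 4 genes of each of 20 lists with the largest absolute difference. Il7r, Id2, Cd69, S1pr1, Tcf12, Tcf3, B2m, Psap, the ILC3 markers and the genes above the highest control were named after their values were seen. Calculations used Python 3.11.15 (pandas 2.3.3, numpy 2.4.6, statsmodels 0.14.6), and fold counts were tested on simulated data. The shifts planted there were larger than any difference of the 6 markers, so that check does not bear on differences of their size. Alternatives were other floors, loess correction (span 0.3), quantile normalization, subtraction of the median, the highest probe set, addition of 32 before the logarithm, values raised to background, and thresholds of 25% higher (20% lower) and 2-fold.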

Additional observations from a re-analysis of the deposited data

How the results depend on the processing

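No paired analysis was possible because each genotype has 1 array, and no array could be left out. All values of single markers moved by less than 1 robust SD of the differences in their level bin. That SD ran from 0.20 to 0.29, a lenient mark for differences of this size. After the loess correction Endou fell from 0.26 to 0.11 and Cd24a from 0.28 to 0.13, and Cd1d1 went from -0.29 to -0.42. The median of the 6 ranged from 0.17 to 0.31 (0.35 over the 5 genes other than Cd1d1 with the highest GC-matched control as floor). The count of markers 1.5-fold higher stayed at 0 in every setting except the threshold of 25% higher, where it was 3. The 2 other double-positive genes that were 1.5-fold higher became 1 after subtraction of the median and 0 after the loess correction, quantile normalization, addition of 32 and the 2-fold threshold. Their median of 0.09 ranged from -0.06 to 0.09. At 1.5-fold, which 7.66% of all genes above background passed upward and 5.22% downward, 15 of 168 distinct list genes were higher and 9 lower. These counts were 3 and 5 after adding 32, 8 and 5 with the highest GC-matched control as floor (added after seeing the data), 3 and 3 at 2-fold and 37 and 23 at the lowest threshold. Among all genes, 958 were 1.5-fold higher and 652 lower (59.5% higher); subtracting the median gave 722 and 870 (45.4%), the stricter floor 757 and 271 (73.6%), adding 32 gave 69 and 14 (83.1%), and the GC-matched floor 199 and 31 (86.5%). The causes were not tested.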

Other observations

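Natural killer T cells are selected on Cd1d1-bearing double-positive thymocytes. Of 11 measured genes of these cells, 9 were above background on both arrays and 3, Il2rb, Icos and Egr2, exceeded the highest GC-matched control. None passed 1.5-fold in either direction, against 7.66% of all genes above background higher and 5.22% lower, and the median difference was 0.12. Klrb1c, which encodes NK1.1, was at 4.83 on the circKcnt2 knockout array and 4.25 on the WT array, and Icos, a costimulatory receptor, at 8.01 in the knockout and 7.55 in WT. Zbtb16, which encodes the factor PLZF that directs these cells, was at 5.40 in the knockout and 5.14 in WT.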
